A study of Mus musculus with 10 samples.

Results

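Thymidylate synthase and 8 further enzymes of pyrimidine nucleotide and folate metabolism were followed through 10 RNA-seq libraries of mouse spleen erythroblasts. The 9 genes are Tyms, Tk1, Dut, Rrm1, Rrm2, Umps, Upp1, Dpyd and Shmt1. They were picked by name, for their part in making deoxythymidine triphosphate or in handling the drug 5-fluorouracil (5-FU), from a count table of 53465 genes. Of the 9, 8 had counts and passed the filter on low counts. Dpyd had no count in any library and was not tested.

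Erythroblasts divide a few times and then mature into red blood cells. These were taken from the spleens of C57BL/6 mice 11 days after 5-FU, which kills dividing blood precursors and is followed by a burst of new red cell formation. The 4 genotypes in the labels are wild type (2 libraries, numbered 1 and 3), miR-144/451-/- (2 libraries, 1 and 3), Nrf2-/- (3 libraries) and Nrf2/miR-144/451-/- (3 libraries), the last called double-null here. The miR-144/451 locus makes a pair of microRNAs found at high levels in the red cell lineage. Nrf2 is the transcription factor behind much of the antioxidant response. Every group had received 5-FU, so the drug's own effect on these genes cannot be read from the libraries. The labels say neither how the alleles were made nor which mouse, or how many, each library came from. The p-values therefore measure the spread between libraries.

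5-FU acts through the enzymes described here. Cells turn it into fluorouridine and fluorodeoxyuridine nucleotides. One of these traps thymidylate synthase, the enzyme that makes thymidylate from deoxyuridylate with a folate as methyl donor, and others enter RNA and DNA. Dividing erythroblasts need a large supply of deoxynucleotides for their last S phases. Genes of that supply are commonly switched on with entry into S phase.

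Totals per library were 13087827 to 15131036 counts, with 7.07% to 12.17% from globin genes. Mir144 had 9 to 17 counts in each wild type and Nrf2-/- library and 0 in each miR-144/451-/- and double-null library. Mir451a had 0 counts everywhere. Nfe2l2, the Nrf2 gene, stood at 50.6 ± 4.78 CPM (counts brought to one library size; SD, n = 3) in Nrf2-/- against 60.8 ± 3.8 (n = 2) in wild type, and a count over the whole gene does not show a deleted part. The erythroid markers, 13 of 13 of them tested, summed to 93250 to 162400 CPM, with Klf1 at 210 to 587 CPM. Markers of B cells, T cells, macrophages, neutrophils, megakaryocytes and progenitors were also present, and none of them was at 0 in all libraries. Nrf2-/- library 3 stood apart, with macrophage markers at 1230 CPM in sum against 88.4 to 437 CPM in the other libraries. Xist and Y-linked genes marked 3 libraries as female, which were wild type 1 and 3 and double-null 3, and the other 7 as male. Where miR-144/451-/- or Nrf2-/- is set against wild type, sex and genotype therefore cannot be told apart.

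The 2 microRNAs of the cluster are shown because their loss separates the groups in which the members differed. Capitals mark the seed, bases 2 to 8, through which a microRNA pairs with its targets. The sequences are RefSeq's, 5′ to 3′.
mmu-miR-144-3p: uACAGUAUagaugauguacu
mmu-miR-451a: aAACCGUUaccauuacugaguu
The seeds differ between the 2 microRNAs. The 3′ UTR of each member's longest transcript was searched for a 7-base match to either seed. None of the 9 held one. Among 20962 mouse 3′ UTRs, 11.8% matched miR-144-3p, and the share for miR-451a was 1.72%. The absence says only that these letters are not in those stretches.

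Tyms, Tk1, Rrm1 and Rrm2 fell in double-null erythroblasts relative to Nrf2-/- erythroblasts, while Dut, Umps, Upp1 and Shmt1 did not pass the test. This is the comparison with 3 libraries on each side, and it asks what loss of the cluster does where Nrf2 is also absent. Differences were tested with edgeR's quasi-likelihood test on the counts of 14110 genes, and a gene was called at a Benjamini-Hochberg adjusted p under 0.05. In this comparison 12.9% of all tested genes were called lower and 14.4% higher, against 4 and 0 of the 8 tested members. For those 4 members every double-null library was below every Nrf2-/- library, which holds for 21.8% of all tested genes. In counts from a bulk cell preparation, fewer cells of a type and less RNA per cell cannot be told apart.

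**Figure D1:**
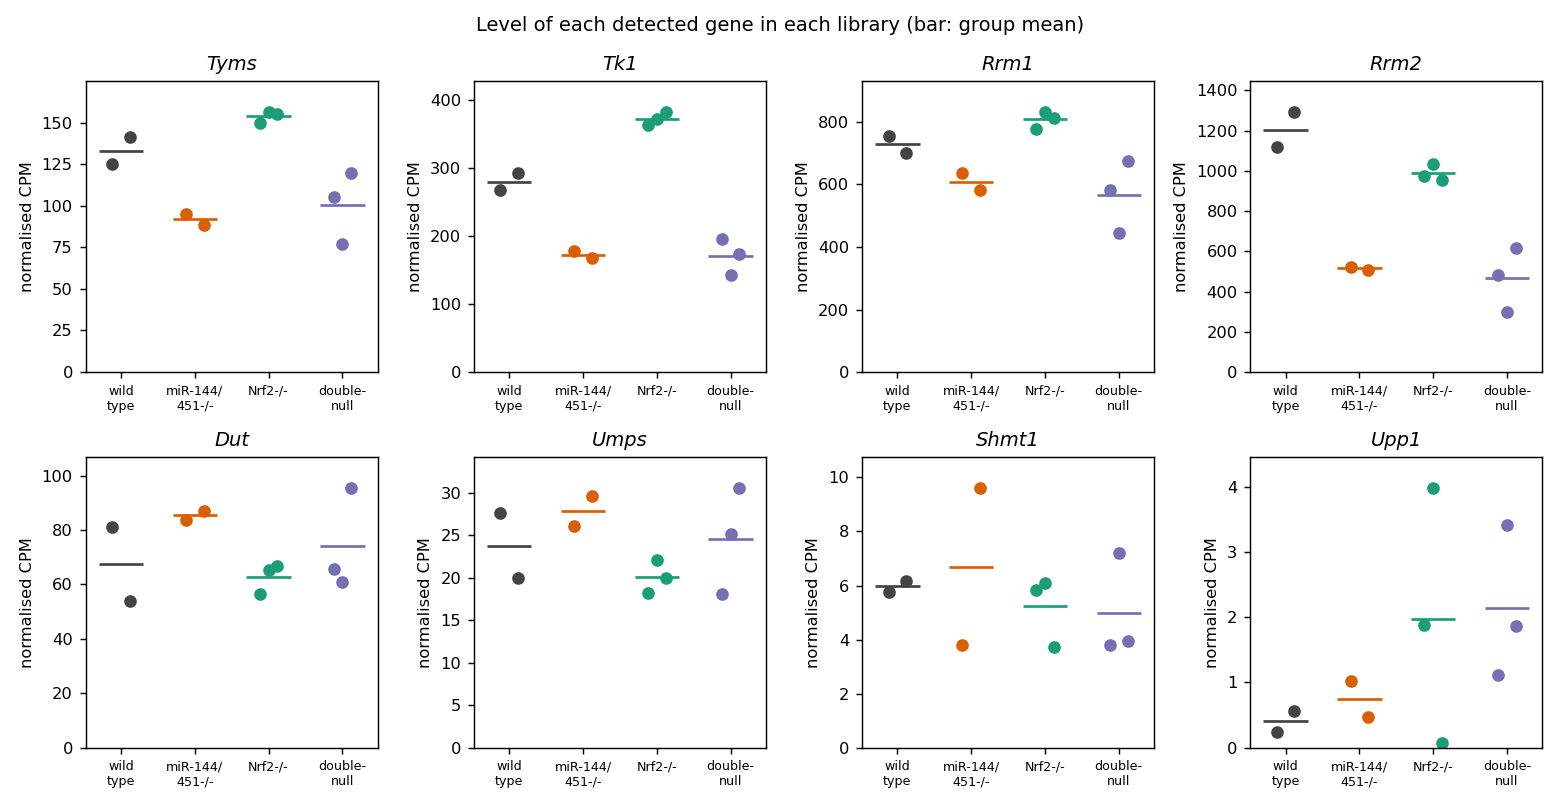
Normalised CPM (linear axes from 0, one panel for each of the 8 members with counts) in each of the 10 libraries, with points for libraries and bars for group means. Tyms, Tk1, Rrm1 and Rrm2 were lower in all 3 double-null than in all 3 Nrf2-/- libraries.

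Tk1 had the largest fall in units of its error. It encodes the cytosolic thymidine kinase, which recycles thymidine to thymidylate and is made mainly in S phase. Tk1 stood at 364, 372 and 382 CPM in Nrf2-/- libraries 1, 2 and 3 and at 196, 142 and 173 CPM in double-null libraries 1, 2 and 3. The highest double-null library lay far below the lowest Nrf2-/- one. The log2 fold change was -1.13 ± 0.13 (SE; edgeR quasi-likelihood, adjusted p = 0.000227), a 2.19-fold lower level. Tk1 and Afmid lie on opposite strands with overlapping exons, and 12.1% of the 31-base words of the Tk1 transcript occur in another gene. Afmid itself had 21.3 to 44.7 CPM and the Tk1 copy Gm6091 0.835 to 2.49 CPM, both small against Tk1.

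Tyms, the direct target of the drug, fell less. It stood at 150, 156 and 155 CPM in Nrf2-/- libraries 1, 2 and 3. In double-null libraries 1, 2 and 3 it stood at 105, 76.7 and 119 CPM. The 3 Nrf2-/- libraries lay close together and the double-null ones were spread out below them, with library 2 lowest. The log2 fold change was -0.61 ± 0.15 (SE; edgeR quasi-likelihood, adjusted p = 0.0127), 1.53-fold lower. Of the 31-base words of its transcript, 21.5% recur in another gene, but the pseudogene Tyms-ps had only 8 counts over all libraries.

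Ribonucleotide reductase turns ribonucleotides into deoxyribonucleotides, and its large subunit Rrm1 and small subunit Rrm2 work as one enzyme. The small subunit is the one whose amount commonly rises and falls with S phase. Rrm2 stood at 973, 1034 and 953 CPM in Nrf2-/- libraries 1, 2 and 3 and at 483, 298 and 616 CPM in double-null libraries 1, 2 and 3. Every double-null library was below every Nrf2-/- library, and double-null library 2 was again the lowest. The log2 fold change was -1.08 ± 0.22 (SE; edgeR quasi-likelihood, adjusted p = 0.00437), 2.12-fold lower. Of the 31-base words of the Rrm2 transcript, 16.5% occur in another gene. The genes sharing the most of them, the copies Gm48455 and Gm48445, had 1 and 4 counts over all libraries.

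Rrm1 moved the same way by less. It stood at 779, 831 and 813 CPM in Nrf2-/- libraries 1, 2 and 3. In double-null libraries 1, 2 and 3 it stood at 583, 446 and 674 CPM. The groups did not overlap. The log2 fold change was -0.51 ± 0.15 (SE; edgeR quasi-likelihood, adjusted p = 0.0313), 1.42-fold lower. This call lay near the threshold and depended on which libraries were in the fit. It was lost without Nrf2-/- library 1 (-0.54), 2 (-0.49) or 3 (-0.51), without double-null library 1 (-0.53) or 2 (-0.36), and without wild type library 1 (-0.51), with edgeR adjusted p from 0.0511 to 0.0901. The calls of Tyms, Tk1 and Rrm2 were kept in 19 of 19 alternatives.

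The falls of Tyms, Tk1 and Rrm2 were also called with the female library or a library that stood apart left out. Over male libraries alone, edgeR's log2 fold changes were -0.74 for Tyms, -1.12 for Tk1, -0.63 for Rrm1 and -1.32 for Rrm2, all called. Without Nrf2-/- library 3, which had the high macrophage markers, they were -0.61 for Tyms, -1.11 for Tk1 and -1.11 for Rrm2, all called. Without double-null library 2, the lowest for all 4 members, they were -0.45, -1.01 and -0.84 in the same order, all called.

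The members not called in this comparison have other roles. Dut encodes dUTPase, which breaks down deoxyuridine triphosphate and so keeps uracil and fluorouracil out of DNA. Dut stood at 56.4, 65.4 and 66.9 CPM in Nrf2-/- libraries 1, 2 and 3 and at 65.8, 60.9 and 95.5 CPM in double-null libraries 1, 2 and 3. The groups overlapped, with double-null library 3 highest, and the log2 difference was 0.24 ± 0.19 (SE; edgeR quasi-likelihood, adjusted p = 0.387). Umps encodes the enzyme that finishes de novo UMP synthesis and also loads 5-FU with its sugar phosphate. Umps stood at 18.2, 22.1 and 20 CPM in Nrf2-/- libraries 1, 2 and 3 and at 18, 25.1 and 30.6 CPM in double-null libraries 1, 2 and 3. These groups overlapped too (0.29 ± 0.20, edgeR adjusted p = 0.313). Shmt1, the cytosolic serine hydroxymethyltransferase that supplies the folate used by thymidylate synthase, was low in both groups. It stood at 5.85, 6.08 and 3.74 CPM in Nrf2-/- libraries and at 3.79, 7.21 and 3.96 CPM in double-null libraries (-0.07 ± 0.38, edgeR adjusted p = 0.913). Smcr8, on the opposite strand with overlapping exons, had 46.1 to 74.4 CPM, and the strand setting of the counting is not given in the sources used here.

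Rrm2 and Tk1 were also lower where the cluster was missing and Nrf2 was present. The comparison of miR-144/451-/- with wild type has 2 libraries on each side. In it 2.23% of all tested genes were called lower and 2.4% higher, against 2 and 0 of the 8 tested members. Rrm2 stood at 1118 and 1291 CPM in wild type libraries 1 and 3 and at 521 and 508 CPM in miR-144/451-/- libraries 1 and 3. The 2 miR-144/451-/- libraries were almost equal and both far below wild type. The log2 fold change was -1.23 ± 0.27 (SE; edgeR quasi-likelihood, adjusted p = 0.0276), 2.34-fold lower. Tk1 stood at 268 and 293 CPM in wild type and at 177 and 168 CPM in miR-144/451-/- (-0.70 ± 0.16, edgeR adjusted p = 0.0364), 1.62-fold lower.

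Both of these calls depend on how the sexes and the small groups are handled. The 2 wild type libraries were female and the 2 miR-144/451-/- libraries male. With a term for sex, which double-null library 3 alone sets, the log2 difference of Rrm2 was -0.57 (edgeR adjusted p = 0.581) and that of Tk1 -0.66 (edgeR adjusted p = 0.435). With that term 1 gene of all tested was called in this comparison, in place of 653. The Rrm2 call was lost without wild type library 1 (-1.32) or 3 (-1.11), miR-144/451-/- library 1 (-1.24) or 3 (-1.18), or Nrf2-/- library 1 (-1.23). The Tk1 call was lost without the same libraries (-0.75, -0.62, -0.73, -0.63 and -0.70 in that order), and also without Nrf2-/- library 2 (-0.70) or double-null library 3 (-0.67). With only these 2 groups in the fit neither was called (Rrm2 -1.20, edgeR adjusted p = 0.0605, and Tk1 -0.67, edgeR adjusted p = 0.119). That fit called 149 genes of all tested. With DESeq2's size factors in edgeR Tk1 was not called (-0.71, edgeR adjusted p = 0.0502). With the replicate number as a block, Rrm2 was called and Tk1 was not (-0.70, edgeR adjusted p = 0.0637).

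Tyms and Rrm1 lay lower in both miR-144/451-/- libraries without passing the test. Tyms stood at 125 and 141 CPM in wild type and at 94.9 and 88.6 CPM in miR-144/451-/- (-0.54 ± 0.19, edgeR adjusted p = 0.14). Rrm1 stood at 756 and 702 CPM in wild type and at 637 and 582 CPM in miR-144/451-/- (-0.26 ± 0.19, edgeR adjusted p = 0.533). For 4 of the 8 tested members, Tyms, Tk1, Rrm1 and Rrm2, both miR-144/451-/- libraries were below both wild type libraries, as for 22.8% of all tested genes. Dut stood at 81.2 and 54.1 CPM in wild type and at 83.8 and 87 CPM in miR-144/451-/- (0.33 ± 0.23, edgeR adjusted p = 0.511). Umps stood at 27.6 and 19.9 CPM in wild type and at 26.1 and 29.6 CPM in miR-144/451-/-. For Dut the groups did not overlap, but wild type library 1 lay much nearer to the miR-144/451-/- libraries than to wild type library 3. Shmt1 stood at 5.76 and 6.18 CPM in wild type and at 3.79 and 9.61 CPM in miR-144/451-/-, on both sides of wild type.

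**Figure D2:**
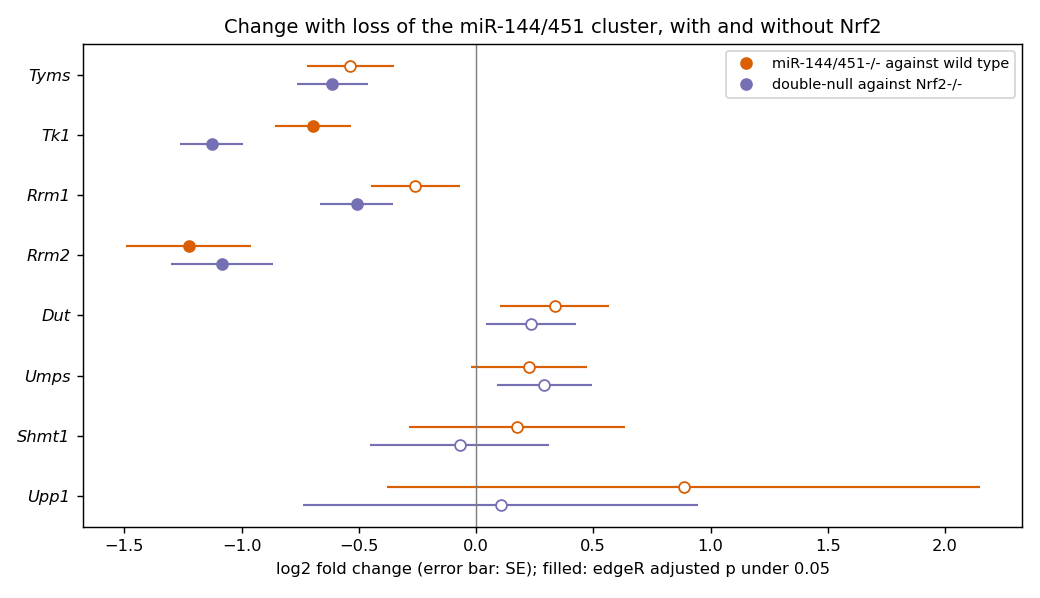
Log2 fold change with its SE (edgeR) for each of the 8 tested members in miR-144/451-/- against wild type and in double-null against Nrf2-/-, with filled points for adjusted p under 0.05 and a line at 0. The filled points are Tk1 and Rrm2 in the first and Tyms, Tk1, Rrm1 and Rrm2 in the other, all below 0.

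Relative to wild type, the double-null erythroblasts had less Tk1 and Rrm2. In that comparison 8.95% of all tested genes were called lower and 8.26% higher, against 2 and 0 of the 8 tested members. Rrm2 differed by -1.37 ± 0.24 (SE; edgeR quasi-likelihood, adjusted p = 0.00378) and Tk1 by -0.72 ± 0.15 (adjusted p = 0.00843) on the log2 scale. Tyms (-0.40 ± 0.17, edgeR adjusted p = 0.121) and Rrm1 (-0.36 ± 0.17, edgeR adjusted p = 0.17) were lower in double-null on average but were not called. The Tk1 call was lost without wild type library 1 (-0.76, edgeR adjusted p = 0.0532) or 3 (-0.65, edgeR adjusted p = 0.0692). With a term for sex neither was called (Rrm2 -0.97, edgeR adjusted p = 0.0803, and Tk1 -0.69, edgeR adjusted p = 0.0977).

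Loss of Nrf2 alone moved no member past the threshold. Of all tested genes 0.191% were called between Nrf2-/- and wild type, and 0 of the 8 tested members by edgeR or DESeq2. At an unadjusted p under 0.05 there was 1, Tk1 (0.41 ± 0.15 higher in Nrf2-/-, edgeR adjusted p = 0.361). Tyms (0.21 ± 0.17) and Rrm1 (0.15 ± 0.17) also lay higher in Nrf2-/- and Rrm2 (-0.29 ± 0.24) lower, with edgeR adjusted p from 0.629 to 0.75. Between double-null and miR-144/451-/- erythroblasts 0.0638% of all tested genes were called, and 0 of the 8 tested members by edgeR or DESeq2. There the members' log2 differences ran from -0.43 to 1.53, and 0 had an unadjusted p under 0.05.

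The difference between the effects of losing the cluster with and without Nrf2 was tested as an interaction. Of all tested genes 0.0638% were called, and 0 of the 8 tested members by edgeR or DESeq2, with none at an unadjusted p under 0.05. The largest of the better measured members was Tk1, with -0.43 ± 0.21 (SE; edgeR quasi-likelihood, adjusted p = 0.999). Tyms had -0.08 ± 0.24 and Rrm2 0.14 ± 0.34. That Tyms and Rrm1 were called on the Nrf2-/- background and not on the other is thus not a tested difference between backgrounds.

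The 2 subunits of ribonucleotide reductase did not move in proportion. Counts of Rrm2 per count of Rrm1 were 1.48 and 1.84 in wild type libraries 1 and 3 and 0.819 and 0.873 in miR-144/451-/- libraries 1 and 3. They were 1.25, 1.24 and 1.17 in Nrf2-/- libraries and 0.827, 0.668 and 0.914 in double-null libraries. All 5 libraries without the cluster were under 1 and all 5 with it above 1. This ratio is a description of the members and carries no test.

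**Figure D3:**
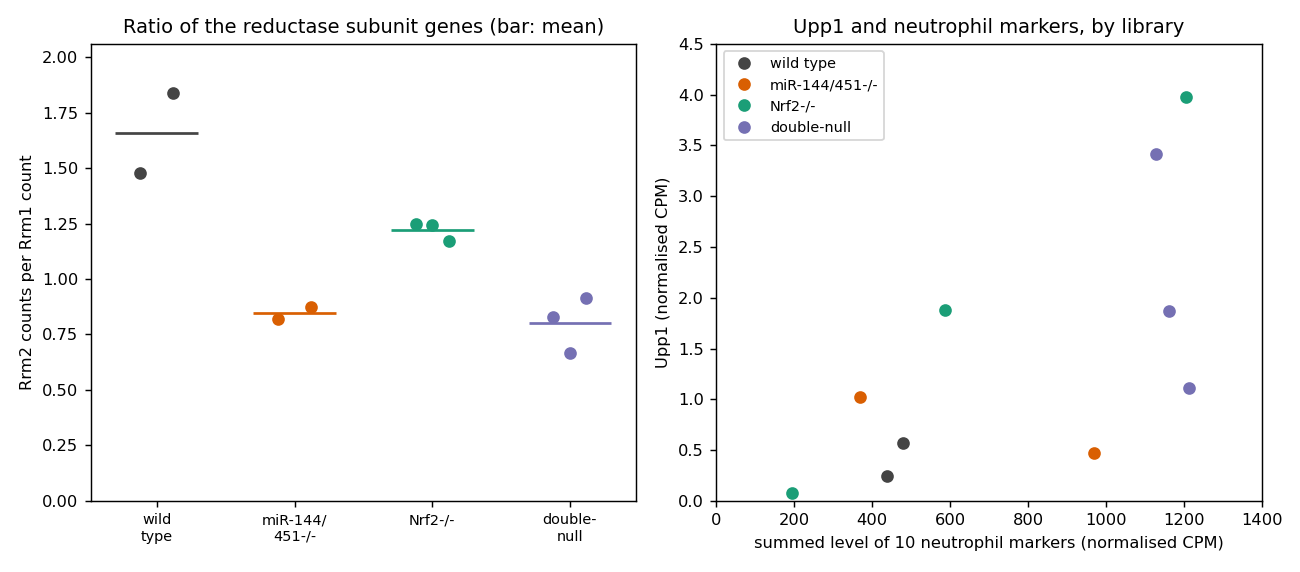
Left, counts of Rrm2 per count of Rrm1 in each library by genotype, on an axis from 0. Right, Upp1 (CPM) against the summed CPM of 10 neutrophil markers in each of the 10 libraries, with Nrf2-/- library 3 at the lower left.

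Promoters of these 2 subunits are shown because the subunits fell together and by different amounts. The sequences are RefSeq's, build GRCm38.p6, plus strand, from 250 bases before to 50 after the start of each gene, 5′ to 3′. Rrm1 is at chr7:102441445-102441744 and Rrm2 at chr12:24708004-24708303. Capitals mark CCAAT, the box bound by the factor NF-Y in many cell cycle promoters.
Rrm1: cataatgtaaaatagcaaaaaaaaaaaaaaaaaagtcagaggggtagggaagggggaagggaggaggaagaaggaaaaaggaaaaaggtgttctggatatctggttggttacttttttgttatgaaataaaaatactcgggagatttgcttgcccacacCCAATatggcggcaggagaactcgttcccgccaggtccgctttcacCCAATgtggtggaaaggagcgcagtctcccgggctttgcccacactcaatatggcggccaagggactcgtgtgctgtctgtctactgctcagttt
Rrm2: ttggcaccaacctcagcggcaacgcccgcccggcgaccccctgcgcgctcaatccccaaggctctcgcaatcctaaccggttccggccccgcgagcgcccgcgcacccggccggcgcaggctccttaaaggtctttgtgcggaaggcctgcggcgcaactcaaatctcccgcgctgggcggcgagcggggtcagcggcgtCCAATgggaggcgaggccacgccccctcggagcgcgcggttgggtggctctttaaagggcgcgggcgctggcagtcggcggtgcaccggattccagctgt
Rrm1 has CCAAT at bases -91 to -87 and -45 to -41 counted from the start, and Rrm2 at -50 to -46. Of 32807 mouse promoters of this length, 37.4% hold CCAAT on either strand. The promoters of Tyms, Tk1, Dut, Umps, Upp1 and Dpyd hold none, and that of Shmt1 has 1 on the strand opposite to the gene. The antioxidant response element TGACNNNGC, the sequence Nrf2 binds, was found in 12.4% of promoters and among the members in Rrm2 alone, at -66 to -58 on the strand opposite to the gene. No member's promoter held the E2F letters TTTGGCGC, TTTCGCGC or TTTCCCGC on either strand, which occur in 1.84% of promoters. Only these exact words were searched, so the result does not show that E2F sites with other letters are absent. Matches are letters in a window, not bound sites.

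Upp1 and Dpyd are the drug-handling end of the set. Upp1 encodes uridine phosphorylase, which interconverts uracil and uridine and can load 5-FU with ribose. Upp1 had 4 and 7 counts in wild type libraries 1 and 3, 14 and 8 in miR-144/451-/- libraries 1 and 3, 28, 53 and 1 in Nrf2-/- libraries, and 15, 45 and 26 in double-null libraries. In CPM these are 0.243 and 0.569, 1.02 and 0.469, 1.88, 3.98 and 0.0764, and 1.11, 3.42 and 1.87. The Nrf2-/- libraries held both the highest and the lowest value of all 10. In double-null against wild type the log2 difference of 2.41 ± 1.14 (SE; edgeR quasi-likelihood, adjusted p = 0.173) was not called. It was called without Nrf2-/- library 3 (2.42 ± 0.70, edgeR adjusted p = 0.0383), with only these 2 groups in the fit (2.45, edgeR adjusted p = 0.047) and without the low-count filter (2.44, edgeR adjusted p = 0.00153). Without that filter the difference of Nrf2-/- from wild type was also called (2.32, edgeR adjusted p = 0.0125).

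Neutrophil markers varied between the same libraries. Their sum over 10 genes was 438 and 479 CPM in wild type, 369 and 969 CPM in miR-144/451-/-, 587, 1205 and 194 CPM in Nrf2-/- and 1214, 1129 and 1162 CPM in double-null libraries 1, 2 and 3. Nrf2-/- library 3 was lowest for both and Nrf2-/- library 2 highest for Upp1 and among the highest for the markers, whereas miR-144/451-/- library 3 had many markers and little Upp1. The genes whose log2 CPM followed Upp1 most closely over the 10 libraries were Slfn4 (Pearson r = 0.94), Ifitm1 (0.93), Retnlg (0.92), Wfdc17 (0.91) and Mmp9 (0.91). Retnlg and Mmp9 are well known from neutrophils. The part of neutrophil RNA in the Upp1 values was not tested.

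Dpyd encodes dihydropyrimidine dehydrogenase, which breaks down uracil and most of a dose of 5-FU, chiefly in the liver. It had 0 of 140816542 counts over the 10 libraries, which allows a level of up to 0.0213 CPM (3 counts; counting error only), and 0.198 to 0.229 CPM in a single library. No count was found either for 49.3% of all genes counted. The other breakdown genes, named after their values were seen, were Dpys with 0 counts and Upb1 with 8, 6, 9 and 15 counts over the wild type, miR-144/451-/-, Nrf2-/- and double-null libraries.

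Between genes, levels were compared per length as the deposited FPKM (counts scaled by gene length and library total), averaged over the 10 libraries. The order was Rrm2 (280.8), Rrm1 (61.9), Tk1 (48.4), Dut (30.1), Tyms (19.8), Umps (6.91), Shmt1 (1.47) and Upp1 (0.732), with Dpyd at no count. Rrm2 libraries ranged from 102.9 to 450.3 FPKM and all lay above the highest Rrm1 library, at 76.7 FPKM. The ranges of Rrm1 (38.8 to 76.7), Tk1 (26.2 to 68.9), Dut (21 to 42.7) and Tyms (12.1 to 24.7) each overlapped their neighbour's, and so did those of Shmt1 (0.886 to 2.93) and Upp1 (0.0358 to 1.95). Umps (4.78 to 10 FPKM) overlapped neither neighbour. The length behind these values adds up all exons of a gene. It was 11012 bases for Rrm1, 5198 for Tk1 and 2771 for Rrm2. Their longest coding transcripts have 3997, 1440 and 2193 bases in that order, so the gap below Rrm2 depends on the length used. Per kilobase of the longest coding transcript instead, Tk1 (174.8) passed Rrm1 (170.4) and Tyms (38.2) passed Dut (37.3), both by little. Rrm2 kept the highest mean (354.8), but whether its libraries stay clear of the others by that length was not compared.

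**Figure D4:**
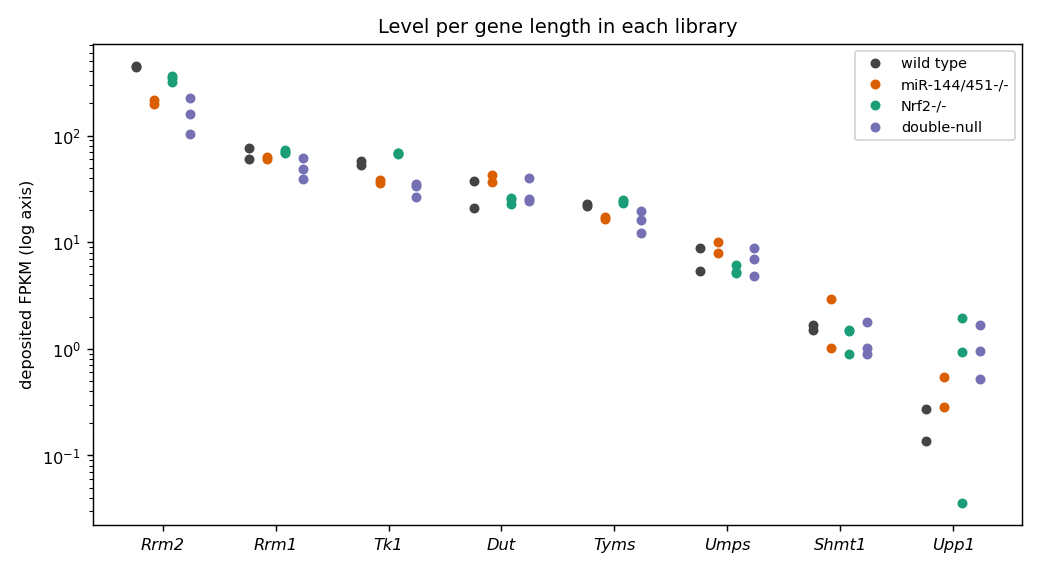
Deposited FPKM of each member with a count in each of the 10 libraries, on a log10 axis, coloured by genotype and ordered by the mean. Rrm2 stands above all other members and Shmt1 and Upp1 at the bottom.

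Across the 10 libraries Tyms, Tk1, Rrm1 and Rrm2 varied together. Pearson's r of log2 CPM was 0.94 for Tyms with Tk1 and with Rrm1 and 0.90 with Rrm2, over libraries that share their genotype groups, and is given as a description. Dut varied with Umps (0.84) and not with these 4 (-0.49 to -0.07). The genes that followed Tyms most closely were Fancl (0.98), Rhno1 (0.98), Ncaph2 (0.98), Siah1b (0.98) and H2afz (0.97). Those closest to Rrm2 were Fam83d (0.97), Polh (0.97), Alkbh4 (0.97), Kdelr2 (0.96) and Fignl1 (0.96).

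S-phase genes outside nucleotide supply moved with the 4 members. Of 24 listed, 17 were called lower and none higher in double-null against Nrf2-/- erythroblasts, with a median log2 fold change of -0.70 against 0.02 for all tested genes. The largest falls among them were of Ccne2 (-1.52 ± 0.26, edgeR adjusted p = 0.0023), Slbp (-1.32 ± 0.23), Ccne1 (-1.29 ± 0.21) and E2f1 (-1.24 ± 0.19). These genes encode a cyclin pair, the histone mRNA binding protein and a transcription factor of S-phase entry. In miR-144/451-/- against wild type 1 of 24 was called, E2f1 (-1.11 ± 0.24, edgeR adjusted p = 0.0255), and the median was -0.45. The summed level was 5544 to 7062 CPM in Nrf2-/- and 2877 to 4575 CPM in double-null libraries, with double-null library 2 lowest as for these 4 members. The part of cycling cells in the fall of Tyms, Tk1, Rrm1 and Rrm2 was not tested.

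Other cell markers moved in the same comparison. In double-null against Nrf2-/- libraries, 9 of 10 B cell markers were called lower with a median of -1.85, and their sum was 347 to 764 CPM against 937 to 1084 CPM, with Ighm the most abundant. Of the macrophage markers 1 of 10 was called lower, Axl, but all 10 had a log2 fold change below 0, with a median of -1.51. Klf1, Epor and Tal1 were among the erythroid markers called lower, and no erythroid marker was called higher. Of the 13 erythroid markers, 8 had a log2 fold change below 0 and 5 above 0, with a median of -0.31. Of 8 megakaryocyte markers Itga2b (1.90 ± 0.29) and Gp1bb (2.69 ± 0.84) were called higher and Gp9 (-1.18 ± 0.20) lower. Of 10 T cell markers Lck (-1.35 ± 0.28) was called lower, and all 10 had a log2 fold change below 0, with a median of -0.88. The part of these cells in the members' values was not tested.

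The lists of other pathway genes hold 62 genes, of which 53 were tested. In double-null against Nrf2-/- erythroblasts 7 (13.2%) were called higher and 4 (7.55%) lower, against 14.4% and 12.9% of all tested genes. Their median log2 fold change was 0.21 against 0.02. In miR-144/451-/- against wild type 2 (3.77%) were called higher and 1 (1.89%) lower, against 2.4% and 2.23%, with a median of 0.06 against 0.02. In double-null against Nrf2-/- these shares are near or under those of all genes, so the values that follow are of single genes and not of the pathway. In double-null against wild type 3 were called in each direction.

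Dck, the kinase that salvages deoxycytidine and activates nucleoside drugs, had the largest fall among these genes in both comparisons. Its mean was 427 ± 19.8 CPM in wild type (SD, n = 2), 200.5 ± 34.1 in miR-144/451-/- (n = 2), 557 ± 29.8 in Nrf2-/- (n = 3) and 183.5 ± 28 in double-null (n = 3). The log2 fold change was -1.60 ± 0.15 (SE; edgeR quasi-likelihood, adjusted p = 7.85e-05) in double-null against Nrf2-/- and -1.09 ± 0.18 (adjusted p = 0.00911) in miR-144/451-/- against wild type. Every library without the cluster lay below every library with it. In salvage, 2 of 12 tested genes (16.7%) were called lower and 3 (25%) higher in double-null against Nrf2-/-, against 12.9% and 14.4% of all tested genes. Cmpk2, the mitochondrial UMP-CMP kinase that interferon induces, fell (-1.39 ± 0.31), and Cmpk1 (0.54 ± 0.11), Uck2 (1.09 ± 0.23) and Uck1 (0.44 ± 0.13) rose. Uck1 and Uck2 are uridine-cytidine kinases, which also phosphorylate fluorouridine.

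Of 10 tested genes of dNTP supply and clean-up, 3 (30%) were called higher in double-null against Nrf2-/-, against 14.4% of all tested genes. In miR-144/451-/- against wild type 1 (10%), Nt5c2, was called higher, against 2.4%. Nt5c2, a cytosolic purine nucleotidase, stood at 45.8 and 34.5 CPM in wild type and at 102.5 and 83.3 CPM in miR-144/451-/- (1.21 ± 0.18, edgeR adjusted p = 0.00547). It stood at 35, 34.2 and 31.9 CPM in Nrf2-/- and at 83.5, 68.9 and 78.3 CPM in double-null libraries 1, 2 and 3 (1.19 ± 0.14, edgeR adjusted p = 0.000265). The libraries with and without the cluster did not overlap. Nt5c (0.75 ± 0.19) and Nt5m (1.14 ± 0.34), nucleotidases that act on deoxynucleotides, were also called higher in double-null against Nrf2-/-. No gene of this list was called lower there.

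Tdg, the DNA glycosylase that removes thymine and uracil from mismatches and acts on fluorouracil, rose as well. It stood at 35.8 and 31.6 CPM in wild type and at 62.1 and 58.1 CPM in miR-144/451-/- (0.83 ± 0.16, edgeR adjusted p = 0.0161). In Nrf2-/- libraries it stood at 31.7, 31.8 and 26.9 CPM and in double-null libraries at 59.5, 54.9 and 68.2 CPM (1.02 ± 0.13, edgeR adjusted p = 0.000381). These groups did not overlap either. It was the only one of 6 tested uracil repair genes called in either comparison. Of 15 tested folate genes, Mthfd1l (-0.44 ± 0.12) and Mtr (-0.39 ± 0.11) were called lower in double-null against Nrf2-/-, and none in miR-144/451-/- against wild type. None of the 6 genes of de novo synthesis was called in either. Of 4 tested nucleoside transporters none was called in these 2 comparisons, and Slc28a2 was lower in double-null than in wild type (-1.59 ± 0.33, edgeR adjusted p = 0.00958).

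**Figure D5:**
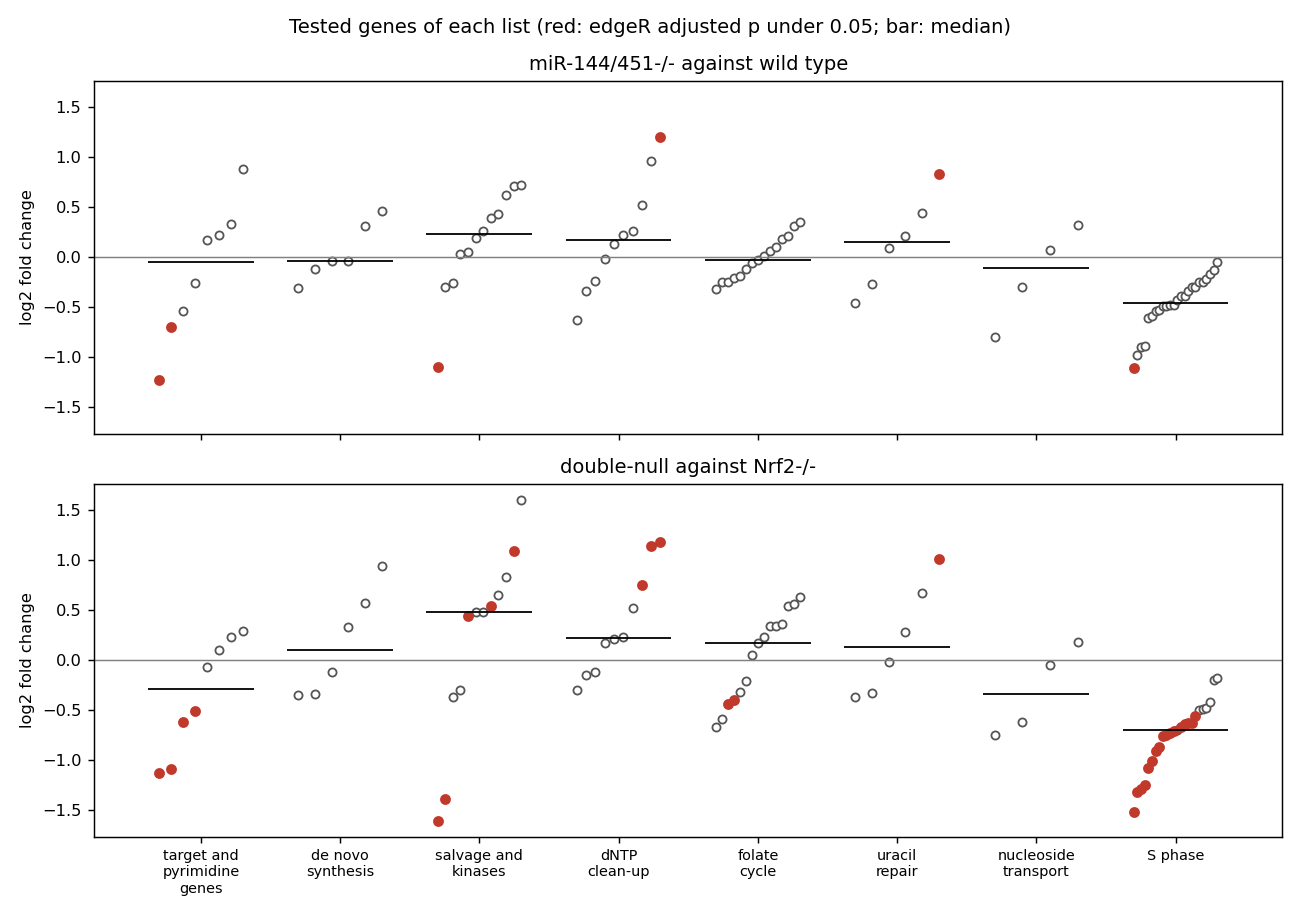
Log2 fold change (edgeR) of the tested members, of the other pathway genes by list and of the S-phase genes, in miR-144/451-/- against wild type and in double-null against Nrf2-/-, with red points for adjusted p under 0.05 and bars for medians. Dck is the lowest called point of the salvage list and Nt5c2 and Tdg are called higher in both.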

How the data were processed

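Gene counts and FPKM came from 10 RNA-seq libraries of bead-isolated mouse spleen erythroblasts. The authors deposited raw counts in one table and FPKM in a file for each library. Each FPKM equalled the count over a gene length and the library's total, to within 0.1% for 196970 of 196970 values. Per the submitters' processing notes, the build was mm9 and the tools included HISAT2 2.1.0, Bowtie2 2.2.3, TopHat2 and CASAVA, with no roles. How reads were counted, on which annotation and whether by strand is not given in the sources used here. Symbols came from a table of Ensembl identifiers, of which 99.6% matched.

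One edgeR 4.0.16 fit (R 4.3.3) covered the 10 libraries (genotype coefficients, TMM factors, filterByExpr, robust quasi-likelihood test, two-sided, 6 residual degrees of freedom), tested on simulated data. CPM are counts scaled by library total and TMM factor. The 9 members and the gene lists were chosen with earlier results of these data known. Pathway genes named are up to 4 per list and comparison with the smallest p among those called, with Uck1 named in addition. Genes most like Tyms, Rrm2 and Upp1 are the 5 highest by r of log2 CPM (prior count 2) with a mean of at least 5 CPM and no predicted-gene name. Chi-square over its degrees of freedom was 17.3 to 30.4 between replicates, more than counting error alone gives. Each library was treated as a sample, though this does not show that the libraries came from different mice. Transcripts were GENCODE M21 and sequences RefSeq (GRCm38.p6). Alternatives were DESeq2 1.42.0, other scalings, no low-count filter, only the groups compared, a replicate block, sex, globin genes removed and each library left out. A further erythroid marker is not reported here.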

Additional observations from a re-analysis of the deposited data

How the results depend on the processing

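Of the 8 tested members, the number called in miR-144/451-/- against wild type was 2, and it became 1 with DESeq2's size factors in edgeR, 0 with only the 2 groups, 1 with the replicate block, 0 with a term for sex and 0 to 2 with a library left out. In double-null against wild type it was 2, and it became 0 with a term for sex and 1 to 3 with a library left out. In Nrf2-/- against wild type it was 0, and 1 without the low-count filter. In double-null against Nrf2-/- it was 4, and 3 to 4 with a library left out. Under the other alternatives these counts stayed the same or within 1.5 times. No member was called in the remaining comparisons under any alternative. Deviations from group means correlated at -0.111 to 0.287 for the same replicate number and -0.287 to 0.286 for different numbers. In groups of 2 libraries these deviations mirror each other, so the ranges cannot decide whether the numbers pair the libraries. With the replicate block 429 genes in place of 653 and 1 member in place of 2 were called in miR-144/451-/- against wild type. In the same comparison 1 gene of all tested was called with a term for sex and 149 with only the 2 groups. Without scaling factors the median of all genes moved by 0.123 in that comparison, by -0.103 in Nrf2-/- against wild type, by -0.214 in double-null against miR-144/451-/- and by -0.11 in the interaction. The share of calls that were higher became 66.8% in place of 51.8% in miR-144/451-/- against wild type and 36% in place of 48% in double-null against wild type.

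No called member changed sign under any alternative. The changes of sign below are of members that were not called, and their cause was not tested. With a term for sex, log2 differences became 0.13 (Rrm1) and -0.30 (Shmt1) in miR-144/451-/- against wild type, 0.49 (Dut), 0.37 (Rrm2) and 0.26 (Umps) in Nrf2-/- against wild type, 0.072 (Shmt1) in double-null against Nrf2-/-, -0.011 (Tyms) in double-null against miR-144/451-/-, and -0.77 (Rrm2), -0.63 (Umps) and 0.37 (Shmt1) in the interaction. Over male libraries they became 0.10 (Shmt1, double-null against Nrf2-/-) and -0.0025 (Tyms, double-null against miR-144/451-/-). Without scaling factors they became -0.057 (Umps, double-null against wild type), -0.076 (Tyms, double-null against miR-144/451-/-) and -0.022 (Umps, interaction). With the replicate block they became -0.024 (Umps, double-null against wild type) and 0.034 (Tk1, double-null against miR-144/451-/-), and with DESeq2's size factors in edgeR the latter was 0.0028. With a library left out, signs changed within these ranges. In miR-144/451-/- against wild type the range was -0.63 to 0.69 (Shmt1). In Nrf2-/- against wild type the ranges were -0.37 to 0.24 (Dut), -0.46 to 0.037 (Umps) and -0.31 to 2.1e-05 (Shmt1). In double-null against wild type they were -0.13 to 0.47 (Dut) and -0.16 to 0.32 (Umps), and against Nrf2-/- -0.45 to 1.09 (Upp1) and -0.43 to 0.11 (Shmt1). In double-null against miR-144/451-/- they were -0.13 to 0.10 (Tk1), -0.23 to 0.045 (Rrm1), -0.39 to 0.095 (Rrm2), -0.35 to 0.0013 (Umps) and -0.95 to 0.36 (Shmt1). In the interaction they were -0.22 to 0.086 (Tyms), -0.43 to 0.16 (Dut), -0.12 to 0.38 (Rrm2), -0.20 to 0.28 (Umps), -1.46 to 0.20 (Upp1) and -0.76 to 0.55 (Shmt1). The order of levels by transcript length, an alternative chosen after seeing the data, kept 5 of 9 members at their rank. Depth limits Upp1, Shmt1 and Dpyd.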

Other observations

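The gene lengths behind the deposited FPKM equalled the summed exon length of the GENCODE M21 gene model for 25177 of 27016 genes (93.2%), among them the 8 members with counts. M21 annotates a later build than mm9, the only build in the submitters' processing notes. Which build the reads were aligned to was not tested.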
